A study of Mus musculus with 2 samples.

Results

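The 10 genes described here are listed as surface and regulator genes of blood stem cells and early progenitors: Cd34, Cd48, Slamf1, Procr, Hlf, Mecom, Eng, Cd27, Gcnt2 and Il7r. Of these, Gcnt2 encodes a glycosyltransferase, not a surface antigen. The 10 genes were chosen by name, with earlier results of these data known. All 10 were found among the 43346 Ensembl genes of the deposited tables, of which 21474 are protein-coding. Total RNA-seq counted their RNA in 2 libraries, replicates 1 and 2, both labelled megakaryocyte progenitor (CFU-Meg), the colony-forming precursor of the cells that shed platelets. Both libraries came from primary cells of adult male C57BL/6J mice aged 5 to 6 weeks, with no genotype change or treatment given, and each was made from 1 ng of RNA. The biosamples are separate but carry 1 donor identifier, so the spread between the libraries may be technical or that of a single source and need not be the spread between animals. There is 1 group and no contrast between conditions, and the tests below compare these libraries alone.

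In mouse marrow, stem cells are commonly told from their progeny by surface proteins of the SLAM family. Stem cells carry CD150, the product of Slamf1, and lack CD48, while most committed progenitors carry CD48. CD34 is low on long-term mouse stem cells and appears on multipotent and myeloid progenitors. EPCR (Procr) and endoglin (Eng) mark stem cells and also endothelium, the transcription factors Hlf and Mecom act in stem cell maintenance, CD27 marks multipotent progenitors, and the IL-7 receptor chain (Il7r) marks lymphoid progenitors. CD150 is also used to sort the megakaryocyte branch.

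The libraries held 82746658 and 75652762 expected counts, which are estimated reads per gene, and the 10 genes took 26946 of them in replicate 1 and 22122 in replicate 2. Reads were compared per gene with an exact two-sided binomial test and called different at a Benjamini-Hochberg adjusted p under 0.05 with a fold of 2 or more. Of 14304 genes tested, 1096 (7.66%) were called. The mean chi-square per gene was 41.9, where counting noise alone would give about 1, so they are not the same counts deposited again, though both may still be preparations of a single source. Of the defining markers of the labelled cell type, 3 of 14 (Itga2b, Selp and Vwf) reached 1 TPM in both libraries, Tubb1 and Gp6 had no reads, and the list had a summed level of 15.2 TPM in replicate 1 against 8.53 TPM in replicate 2. All 10 granulocyte markers reached 1 TPM and summed to 16252 and 16831 TPM. In these bulk libraries, fewer cells of a type and less RNA per cell cannot be told apart. TPM is a level per transcript length scaled to a fixed total, so it can be compared between genes. Positions are on GRCm38, and values are given for replicate 1 and then replicate 2.

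The genes spread over a range from about 100 TPM to under 1. Cd48 and Cd34 were the highest, Cd27 came next, Gcnt2, Hlf and Eng lay between 6 and 12 TPM, and Slamf1, Il7r and Procr stayed under 1 TPM in both libraries. Mecom reached 1 TPM in replicate 1 alone. Thus 6 of 10 reached 1 TPM in both libraries, against 46.2% of protein-coding genes and 25.6% of all Ensembl genes. The median of the 10 genes was 7.31 TPM in replicate 1 and 6.37 TPM in replicate 2, and that of all protein-coding genes was 0.62 and 0.54 TPM.

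**Figure D1:**
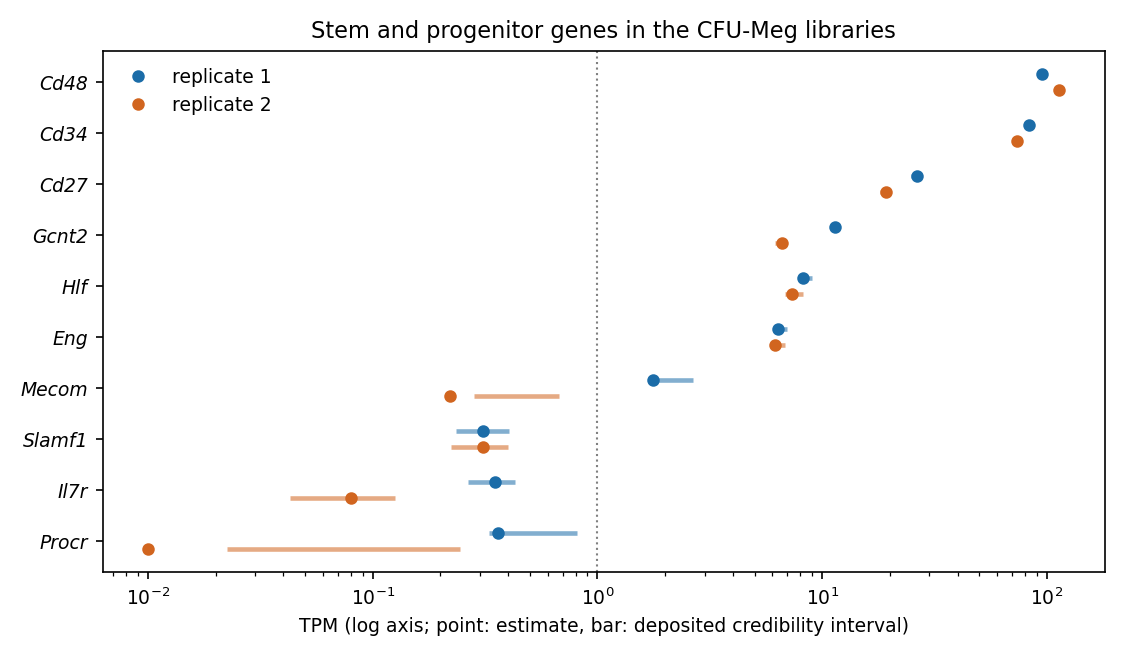
Level of each of the 10 genes in TPM on a log axis, with replicate 1 drawn above replicate 2, the authors' deposited credibility interval as a bar and a dotted line at 1 TPM. Cd48 and Cd34 lie near 100 TPM in both libraries, Slamf1 is at 0.31 TPM in both, and Mecom, Il7r and Procr are higher in replicate 1 than in replicate 2.

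Neighbours in this order were not all apart. The library values of Cd48, Cd34 and Cd27 did not overlap with those of the gene below them. Gcnt2 and Hlf did overlap, because Gcnt2 was above Hlf in replicate 1 and below it in replicate 2. Hlf was above Eng in both libraries, but their deposited intervals were apart in replicate 1 only. Eng lay above Mecom in both libraries, and from Mecom down to Slamf1, Il7r and Procr each gene overlapped with the next.

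CD48 is an adhesion and costimulatory ligand anchored to the membrane by a lipid. Its gene (ENSMUSG00000015355.9, chr1:171682009-171705258, plus strand) was at 95.41 TPM in replicate 1 and 112.64 TPM in replicate 2, or 104 ± 12.2 TPM (SD, n = 2). These levels stood above those of 97.2% and 97.7% of protein-coding genes. It was the member with the second largest number of reads, 6207 and 6778, and the only member tested whose read ratio leaned towards replicate 2. The log2 ratio of replicate 1 over replicate 2 was -0.28 (exact binomial test, adjusted p = 2.79e-26), a difference beyond counting error but under 2-fold. The deposited intervals were apart, at 91.6 to 96.2 TPM and 108 to 113 TPM. The full-length transcript (ENSMUST00000068584.6), with 240 codons, took 99.88% and 97.53% of the level. A shorter transcript (ENSMUST00000015499.9) lacks an exon of 267 bases, leaving 151 codons, and had 5.35 and 126.2 reads, with intervals of 0.0036 to 0.471 TPM and 1.80 to 4.05 TPM that did not overlap.

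Slamf1 (ENSMUSG00000015316.11, chr1:171767127-171801184, plus strand), the gene of CD150, lies 61.9 kb beyond Cd48 on the same chromosome with 5 annotated genes between them. It had 53 and 45 reads, or 0.31 TPM in each library. Exact Poisson intervals of counting error ran from 0.234 to 0.408 TPM in replicate 1 and from 0.223 to 0.408 TPM in replicate 2. The level of Cd48 was thus 308 and 363 times that of Slamf1. The libraries did not separate on Slamf1 reads, with a log2 ratio of 0.08 (exact binomial test, adjusted p = 0.884). Of these reads, 44.42 and 45 were assigned to the transcript with the whole coding sequence of 343 codons, and the other 8.58 in replicate 1 to a transcript that retains an intron.

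The rest of the SLAM family, the counter-receptor Cd2 and the adaptors were all below Cd48. Of 14 listed genes, Cd48 and Slamf1 included, 6 reached 1 TPM in both libraries. Cd84 was at 13.93 and 14.88 TPM and Ly9, the gene of CD229, at 8.85 and 8.34 TPM, both homophilic receptors of the family. Cd244a, which encodes the receptor 2B4 that binds CD48, was at 2.70 and 2.08 TPM, and Cd2, the other CD48 receptor of mice, at 0 and 0.07 TPM. Among the adaptors, Sh2d1b1 (EAT-2) was at 2.65 and 2.70 TPM, Sh2d1b2 at 0.12 and 0.08 TPM and the kinase Fyn at 2.11 and 2.44 TPM. Sh2d1a, the adaptor SAP of T and NK cells, was listed at 0 reads, with deposited intervals of 0.0425 to 0.322 TPM and 0.0432 to 0.341 TPM. Slamf9 was at 0.14 and 0.21 TPM and Slamf8 at 0 and 0.19 TPM. Of the 10 family genes tested, 2 were called, both lower in replicate 1. Over all tested genes 2.62% were called in that direction. Of genes with a mean of 0.1 to 1 TPM, the range of both, 25.3% were called in either direction. Slamf7 was at 0.26 and 1.01 TPM (log2 ratio -2.21, exact binomial test, adjusted p = 1.9e-21). Slamf6 was at 0.37 and 1.47 TPM (log2 ratio -1.32, exact binomial test, adjusted p = 7.5e-09).

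CD34 is a sialomucin, a heavily glycosylated membrane protein. Its gene (ENSMUSG00000016494.5, chr1:194938819-194961279, plus strand) held the most reads of the members, 12053.5 and 9935. The level was 82.92 TPM in replicate 1 and 73.63 TPM in replicate 2, or 78.3 ± 6.57 TPM (SD, n = 2), above 96.7% and 96.2% of protein-coding genes. The read ratio was small, at a log2 of 0.13 (exact binomial test, adjusted p = 2.3e-10), and Cd34 was 267 and 238 times as high as Slamf1. Cd48 exceeded Cd34 by a ratio of 1.15 in replicate 1 and 1.53 in replicate 2. An antisense gene, Gm16897, overlaps 5521 bases of Cd34 and was at 1.32 and 0.33 TPM. Whether the counting used strand is not stated, so reads of overlapping genes cannot be told apart.

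2 protein-coding transcripts of Cd34 differ in the splice site of the last exon and so in the tail inside the cell. A full-length and a tail-truncated form of mouse CD34 are both known. The sequences across that junction are shown because they separate the forms, with the end of the shared exon (chr1:194959201-194959230) in lower case and the last exon in capitals. Of that exon, 60 bases are shown for the long tail (ENSMUST00000016638.3, chr1:194959936-194959995) and the 15 bases down to the stop codon for the short tail (ENSMUST00000110815.4, chr1:194959780-194959794), all on the plus strand.
Cd34 long tail: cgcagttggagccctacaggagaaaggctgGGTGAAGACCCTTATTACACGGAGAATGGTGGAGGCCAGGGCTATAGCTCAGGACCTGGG
Cd34 short tail: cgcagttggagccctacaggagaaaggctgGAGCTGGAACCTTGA
The last exon of the short-tailed transcript starts 156 bases upstream of that of the long-tailed one, and its reading frame ends after 12 coding bases in place of 183, so the forms have 325 and 382 codons. The long-tailed form took 80.0% of the level in replicate 1 and 80.85% in replicate 2, and the short-tailed form took 16.74% and 17.25%. These shares moved by less than 1 percentage point between the libraries. Transcripts with a retained intron took 3.18% and 1.90%.

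Among the relatives and ligands of CD34, 5 of 8 other genes reached 1 TPM in both libraries. Selplg (PSGL-1, a selectin ligand) was at 48.39 and 47.79 TPM, and Crkl, an adaptor that binds the CD34 tail, at 7.09 and 7.26 TPM. The sister sialomucins Podxl and Podxl2 were at 0.16 and 0.21 TPM and at 0.03 and 0.07 TPM. Sele, the E-selectin gene, was called higher in replicate 1, at 3.98 and 1.89 TPM (log2 ratio 1.03, exact binomial test, adjusted p = 1.5e-25). It was the single gene called of 6 tested, where 7.66% of all tested genes were called, and 6.16% of those with a mean of 1 to 10 TPM. Selp was at 3.16 and 1.21 TPM, and Chst4, a sulfotransferase that modifies selectin ligands, had no reads, which allows up to 0.0259 and 0.0279 TPM.

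CD27 is a receptor of the TNF receptor family. Cd27 (ENSMUSG00000030336.10, chr6:125232622-125237010, minus strand) was at 26.28 TPM in replicate 1 and 19.22 TPM in replicate 2, with deposited intervals of 24.9 to 27.2 and 18.1 to 20.1 TPM. It stood above 88.0% and 84.4% of protein-coding genes. Its 2224 and 1491 reads gave a log2 ratio of 0.43 (exact binomial test, adjusted p = 6.7e-18), under 2-fold. The full-length transcript, with 250 codons, took 93.27% and 91.49%, and transcripts with a retained intron took 6.74% and 7.85%. All 4389 bases of Cd27 lie within Vamp1 on the opposite strand, and Vamp1 was at 6.94 and 4.71 TPM, likewise with the larger value in replicate 1. The part of Vamp1 reads in the Cd27 level was not tested.

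The CD27 pathway runs from the ligand CD70 through TRAF adaptors to NF-kappaB, with Siva1 as a further tail-binding protein. Of its 11 other genes, 9 reached 1 TPM in both libraries and none was called, while 3 of 9 tested had an adjusted p under 0.05 at a smaller ratio (exact binomial test), a level of p that 59% of all tested genes reached. Siva1 was at 57.21 and 57.97 TPM, the kinase gene Chuk at 18.07 and 17.18 TPM, and Birc3, a ubiquitin ligase, at 15.62 and 14.32 TPM. The adaptors Traf2, Traf3 and Traf5 lay between 1.67 and 5.11 TPM. Relb was at 0.02 and 0.09 TPM, and Cd70 had no reads, which allows up to 0.0687 and 0.0737 TPM.

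Endoglin, the product of Eng (ENSMUSG00000026814.12, chr2:32646595-32682669, plus strand), is a coreceptor for ligands of the TGF-beta and BMP families. Eng was at 6.38 TPM in replicate 1 and 6.14 TPM in replicate 2, or 6.26 ± 0.17 TPM (SD, n = 2). Its 1270 and 1131 reads gave a log2 ratio of 0.02 (exact binomial test, adjusted p = 0.830), the smallest among the 9 members tested. It stood above 67.8% and 68.2% of protein-coding genes. Fpgs, on the other strand, overlaps it by 61 bases and was at 7.85 and 7.47 TPM.

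Eng-201 and Eng-205 encode the form with the long tail inside the cell. Eng-202 keeps the whole last intron, and its reading frame stops within that intron. It encodes a short-tailed form of the kind known as S-endoglin. The sequences at the end of the coding frame show the difference, with the end of the shared exon in lower case and what follows down to the stop codon in capitals. In Eng-201 the exon (chr2:32681268-32681297) is joined to the next one (chr2:32681437-32681561), and in Eng-202 it runs on into the intron (chr2:32681268-32681386), on the plus strand.
Eng-201 end: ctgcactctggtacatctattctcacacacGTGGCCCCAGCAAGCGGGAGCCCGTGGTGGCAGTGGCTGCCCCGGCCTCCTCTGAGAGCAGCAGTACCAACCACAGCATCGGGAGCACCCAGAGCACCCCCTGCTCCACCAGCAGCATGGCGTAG
Eng-202 end: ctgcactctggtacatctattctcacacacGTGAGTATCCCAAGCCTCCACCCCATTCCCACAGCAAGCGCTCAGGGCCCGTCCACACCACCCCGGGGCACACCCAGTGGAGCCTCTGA
The long-tailed forms together took 87.6% of the level in replicate 1 and 86.5% in replicate 2, and the short-tailed form took 11.5% and 12.5%. The sums therefore differed by little between the libraries.

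The split between the long-tailed transcripts did differ. Eng-201 took 50.49% in replicate 1 and 8.45% in replicate 2, and Eng-205 took 37.0% and 78.01%. Their coding sequences differ by the 3 bases CAG at the start of exon 2, in capitals in the sequences of the junction (chr2:32647001-32647024 joined to chr2:32657516-32657542 in Eng-201, with the second stretch starting at 32657519 in Eng-205).
Eng-201 junction: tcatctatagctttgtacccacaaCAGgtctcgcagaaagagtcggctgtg
Eng-205 junction: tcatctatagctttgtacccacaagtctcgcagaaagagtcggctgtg
Beyond these 3 bases the transcripts differ by 27 bases at the start and 11 at the end, so few reads can assign them. The deposited intervals of Eng-201, 2.36 to 4.07 TPM and 0.000119 to 2.36 TPM, met at their ends, and those of Eng-205, 1.46 to 3.11 TPM and 2.90 to 5.25 TPM, overlapped.

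Around Eng, 12 of 24 other genes of the TGF-beta and BMP pathway reached 1 TPM in both libraries. Among the ligands, Tgfb1 was at 96.04 and 115.73 TPM, while Gdf2 (BMP9) and Bmp10, the ligands that endoglin binds most directly, had no reads, which allows at most 0.0441 TPM for either. Bmp4 was listed at 0 reads, with deposited intervals that reached 0.148 and 0.158 TPM. Of the receptors, Tgfbr1 was at 8.04 and 7.63 TPM, Tgfbr2 at 5.88 and 5.54 TPM and Bmpr2 at 5.55 and 5.17 TPM. Acvrl1, the ALK1 receptor that endoglin assists in endothelium, was at 0.13 and 0.46 TPM. The signal proteins Smad5, Smad4 and Smad2 lay between 12.31 and 29.56 TPM, and the target gene Id1 was at 3.42 and 4.85 TPM. Over all tested genes 7.66% were called, and 25.3% of those with a mean of 0.1 to 1 TPM. Of the 18 tested here 3 were called, namely Tgfbr3 higher in replicate 1 (2.31 and 0.99 TPM), and Bmpr1a (0.14 and 0.28 TPM) and Id3 (0.18 and 0.58 TPM) lower in replicate 1.

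EPCR, the endothelial protein C receptor, presents protein C for activation by thrombin and thrombomodulin. Its gene Procr (ENSMUSG00000027611.8, chr2:155751117-155755471, plus strand) had 33 reads in replicate 1 and 1 read in replicate 2, or 0.36 and 0.01 TPM. It did not pass the filter on low counts and was not tested with the others. Exact Poisson intervals of counting error were 0.249 to 0.508 TPM and 0.000301 to 0.0661 TPM, which did not overlap. Without the filter the log2 ratio was 3.45 (exact binomial test, adjusted p = 1.05e-07), a size that depends on the prior count added to each library. The deposited interval of replicate 2, 0.0225 to 0.246 TPM, lay above the estimate, because it belongs to the posterior mean.

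All 33 Procr reads of replicate 1 were assigned to Procr-203, a transcript annotated without a coding frame that keeps 241 bases of intron after exon 3. The read of replicate 2 went to Procr-201, which has the coding frame of 242 codons. The sequences at this exon end show what separates them, with 30 bases of the shared exon in lower case and the 30 bases that follow in capitals. Procr-203 runs on into the intron (chr2:155754498-155754557), and Procr-201 joins the exon end (chr2:155754498-155754527) to the next exon (chr2:155754769-155754798), on the plus strand.
Procr-203: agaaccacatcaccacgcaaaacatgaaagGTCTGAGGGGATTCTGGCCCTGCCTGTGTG
Procr-201: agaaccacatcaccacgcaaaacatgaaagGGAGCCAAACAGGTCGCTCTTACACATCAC
In the authors' posterior mean, Procr-203 took 44.0% of Procr in replicate 1, so the assignment was not firm.

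In the protein C and thrombin list, 5 of 9 other genes reached 1 TPM in both libraries. Proc, the gene of protein C, had no reads, which allows up to 0.0338 and 0.0364 TPM. Thbd (thrombomodulin) was at 4.93 and 5.81 TPM, F2rl2 (PAR3) at 1.36 and 1.42 TPM and F2rl3 (PAR4) at 1.19 and 1.10 TPM. F2r, the gene of the thrombin receptor PAR1, was called higher in replicate 1, at 3.96 and 1.61 TPM (log2 ratio 1.25, exact binomial test, adjusted p = 2.3e-39). The clotting factor gene F10 was called lower in replicate 1, at 3.40 and 7.39 TPM (log2 ratio -1.08, exact binomial test, adjusted p = 5.3e-39). These were 2 of 6 tested, where 7.66% of all tested genes were called, and 6.16% of those with a mean of 1 to 10 TPM. Because Eng, Procr and Cd34 are also endothelial genes, endothelial markers were read beside them. Of 7 markers, 2 reached 1 TPM in both libraries, Pecam1 at 24.1 and 24.7 TPM and Tie1 at 1.80 and 1.79 TPM, and the list summed to 27.3 and 27.2 TPM. Cdh5, the gene of VE-cadherin, had no reads, which allows up to 0.0125 and 0.0135 TPM.

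Il7r encodes the chain shared by the receptors for IL-7 and TSLP. Il7r (ENSMUSG00000003882.4, chr15:9505788-9530176, minus strand) had 66 reads in replicate 1 and 14 in replicate 2, or 0.35 and 0.08 TPM. Exact Poisson intervals of counting error were 0.268 to 0.440 TPM and 0.0432 to 0.133 TPM. The read ratio was a log2 of 1.95 (exact binomial test, adjusted p = 1.4e-07) and was called, at 3.86-fold higher in replicate 1. With every count divided by 4 before the test, to allow for PCR copies, the log2 ratio was 1.47 and the call was lost (exact binomial test, adjusted p = 0.055). Its only annotated transcript has 459 codons.

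Signal components of the IL-7 and TSLP receptors were present at higher levels than Il7r. Of 14 other genes, 11 reached 1 TPM in both libraries, and none was called, while 9 of 13 tested had an adjusted p under 0.05 at a smaller ratio (exact binomial test), near the 59% of all tested genes. Il2rg, the partner chain for IL-7, was at 16.63 and 13.95 TPM, and Crlf2, the partner chain for TSLP, at 3.28 and 2.32 TPM. The kinases Jak1 and Jak3 were at 28.5 and 24.99 TPM and at 3.82 and 4.91 TPM, and Stat5a and Stat5b lay between 10.52 and 13.24 TPM. Of the ligands, Tslp was at 4.06 and 4.80 TPM and Il7 at 0.02 and 0.05 TPM. Mcl1, a survival gene, was at 61.94 and 77.86 TPM. Among lymphoid markers, Cd79b alone of 8 reached 1 TPM in both libraries, at 19.38 and 21.55 TPM, and Pax5, Cd3e and Cd3g were listed at 0 reads, although the deposited intervals of Pax5 ran from 0.295 to 1.14 TPM and from 0.320 to 1.21 TPM.

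Hlf is a PAR bZIP transcription factor that is confined in normal blood formation largely to stem cells and the earliest progenitors. Hlf (ENSMUSG00000003949.12, chr11:90336536-90390895, minus strand) was at 8.24 TPM in replicate 1 and 7.34 TPM in replicate 2, or 7.79 ± 0.64 TPM (SD, n = 2), above 71.6% and 70.6% of protein-coding genes. The deposited intervals overlapped, at 7.78 to 9.02 and 6.83 to 8.18 TPM. Reads differed more than the level did, with 1871 and 1118 reads and a log2 ratio of 0.59 (exact binomial test, adjusted p = 7.5e-27). The effective length assigned to the gene was 3656 bases in replicate 1 and 2641 bases in replicate 2, since the transcripts given the reads differed in length.

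The leading Hlf transcript in both libraries was Hlf-203, which is annotated without a coding frame and starts within the gene. It was at 4.67 TPM in replicate 1 and 4.78 TPM in replicate 2, or 56.65% and 65.08% of the level. Hlf-201, the full-length transcript with 295 codons, was at 3.48 and 1.33 TPM, with deposited intervals of 3.17 to 3.67 and 1.14 to 1.47 TPM. The difference between the libraries thus lay in Hlf-201, and in the short Hlf-204 in the other direction, at 0.09 and 1.05 TPM. The start of Hlf-203 (chr11:90388092-90388207, minus strand) is shown because its first 86 bases, in capitals, are not in Hlf-201. The following 30 bases are shared with the coding exon of Hlf-201. Other Hlf transcripts were not compared.
Hlf-203: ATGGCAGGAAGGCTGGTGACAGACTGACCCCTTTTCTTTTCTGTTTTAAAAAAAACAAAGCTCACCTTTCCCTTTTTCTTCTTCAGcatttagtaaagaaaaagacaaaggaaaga
Total RNA also holds unspliced RNA, and its part in the reads given to Hlf-203 was not tested.

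The PAR bZIP relatives of Hlf were lower by gene level, with Tef at 2.02 and 2.13 TPM and Dbp at 1.96 and 1.75 TPM. The coding Hlf-201 alone, at 3.48 and 1.33 TPM, was above both in replicate 1 and below both in replicate 2. Nfil3, a repressor that competes for the same sites, was at 4.11 and 7.91 TPM (log2 ratio -0.98, exact binomial test, adjusted p = 3.5e-33), just under 2-fold. Of the 16 other genes of the family and the circadian clock, 13 reached 1 TPM in both libraries. Cry1, a clock repressor, had the highest mean of them, at 9.48 and 7.59 TPM, though Nfil3 was above it in replicate 2. Per3 was at 5.12 and 3.60 TPM. Of 14 tested, Ciart, at 0.53 and 0.23 TPM, was the single gene called. Over all tested genes 7.66% were called, and 25.3% of those with a mean of 0.1 to 1 TPM.

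Mecom encodes the zinc finger factors EVI1 and MDS1-EVI1, which differ in their start and in the PR domain carried by the longer one. Mecom (ENSMUSG00000027684.12, chr3:29951296-30548008, minus strand) spans 597 kb. It had 285 reads in replicate 1 and 38 in replicate 2, or 1.76 and 0.22 TPM, and exact Poisson intervals of counting error ran from 1.57 to 1.98 TPM and from 0.159 to 0.308 TPM. It had the largest ratio of the members tested, 6.49-fold higher in replicate 1 (log2 ratio 2.70, exact binomial test, adjusted p = 6.1e-41). The call stayed with every count divided by 4. Hlf was 4.68 times as high as Mecom in replicate 1 and 33.4 times in replicate 2. The Mecom estimate of replicate 2 lay below its deposited interval of 0.282 to 0.671 TPM, so the second ratio was not firm.

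The Mecom reads were spread over 11 of 17 annotated transcripts. Transcripts that start within 200000 bases of the 5′ end of the gene held 72.38 and 33 reads, and those that start farther in held 212.61 and 5 reads. Their shares were 29.9% and 82.6% for the distal starts and 70.1% and 17.4% for the others. In the authors' posterior mean the distal share was 26.9% in replicate 1 and 52.3% in replicate 2, so with 38 reads the split in replicate 2 was not firm. The leading transcript was Mecom-203, with 111.08 reads and 27.29%, in replicate 1, and it had no reads in replicate 2. There the leading transcript was Mecom-208, annotated as a target of nonsense-mediated decay, with 29.93 reads and 76.01%, but 27.23% in the posterior mean. Mecomos, an antisense gene inside Mecom, had 23 reads in replicate 1 and none in replicate 2.

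Corepressors and partners of Mecom were well above it, with 11 of 12 other genes at 1 TPM or more in both libraries. None was called, while 8 of the 12 had an adjusted p under 0.05 at a smaller ratio (exact binomial test), near the 59% of all tested genes. Spi1 (PU.1) was at 75.06 and 97.66 TPM, Runx1 at 42.83 and 42.29 TPM and Gata2, a stem cell factor linked to EVI1, at 7.35 and 4.61 TPM. The corepressors Ctbp1 and Ctbp2 were at 44.66 and 41.93 TPM and at 18.64 and 14.69 TPM, and the deacetylases Hdac2 and Hdac1 at 83.19 and 87.37 TPM and at 48.77 and 47.52 TPM. Prdm16, the closest relative of Mecom, was at 0.33 and 0.86 TPM.

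Gcnt2 encodes the I-branching enzyme, a glycosyltransferase that turns linear chains of lactosamine (i antigen) into branched ones (I antigen). Gcnt2 (ENSMUSG00000021360.11, chr13:40859754-40960892, plus strand) was at 11.38 TPM in replicate 1 and 6.60 TPM in replicate 2, or 8.99 ± 3.38 TPM (SD, n = 2). The deposited intervals were apart, at 10.8 to 11.6 and 6.18 to 6.82 TPM. Its 2883 and 1571 reads gave a log2 ratio of 0.73 (exact binomial test, adjusted p = 2.4e-58), under 2-fold.

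The gene has 3 alternative first exons, each with its own start and most of the coding frame, joined to shared exons. All 3 transcripts have 401 codons, and each first exon holds 919 coding bases. The first 60 coding bases of each show how different they are, with the start codon in capitals, on the plus strand. They lie at chr13:40860355-40860414 for the first start (ENSMUST00000110191.4), chr13:40887367-40887426 for the middle start (ENSMUST00000069958.9) and chr13:40917883-40917942 for the last start (ENSMUST00000067778.6).
Gcnt2 first start: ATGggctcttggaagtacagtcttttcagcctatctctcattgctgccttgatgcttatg
Gcnt2 middle start: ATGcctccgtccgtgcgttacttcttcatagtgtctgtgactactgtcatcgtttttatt
Gcnt2 last start: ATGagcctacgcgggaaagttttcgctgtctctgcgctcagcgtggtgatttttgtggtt
Set base against base without gaps, these first exons were identical at 65.3% of coding bases between the first and middle starts, at 67.9% between the first and last and at 63.0% between the middle and last. The middle and last starts lie 27.4 and 57.8 kb downstream of the first.

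The difference between the libraries was uneven over these starts. The transcript from the first start was at 3.57 TPM in replicate 1 and 3.50 TPM in replicate 2, with overlapping intervals of 3.19 to 3.88 and 3.08 to 3.81 TPM. That from the middle start was at 3.28 and 1.45 TPM, with intervals of 2.90 to 3.58 and 1.19 to 1.69 TPM. That from the last start was at 4.54 and 1.66 TPM, with intervals of 4.01 to 4.90 and 1.29 to 1.95 TPM. The intervals of the middle and last starts were thus apart between the libraries, and those of the first start overlapped.

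**Figure D2:**
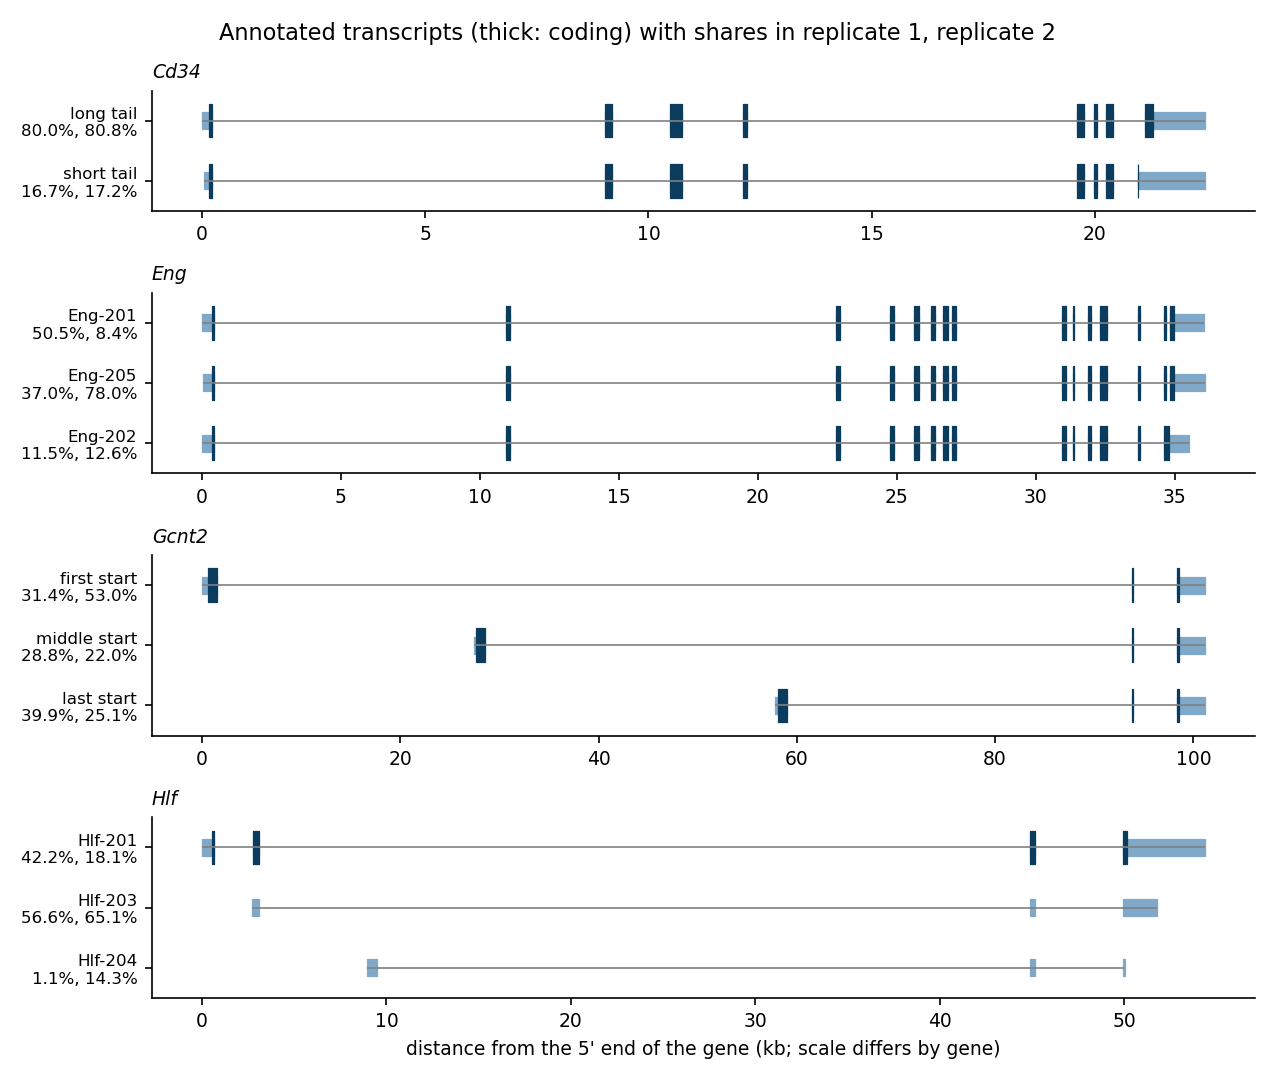
Annotated exons of transcripts of Cd34, Eng, Gcnt2 and Hlf by distance in kb from the 5′ end of each gene, coding parts thick, with the share of each transcript in replicate 1 and then replicate 2 beside its name. The Cd34 forms part at the last exon, and the last exon of Eng-202 runs through the last intron of Eng-201. The middle and last starts of Gcnt2 lie 27.4 and 57.8 kb from the first. Hlf-203 starts just before the second exon of Hlf-201.

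**Figure D3:**
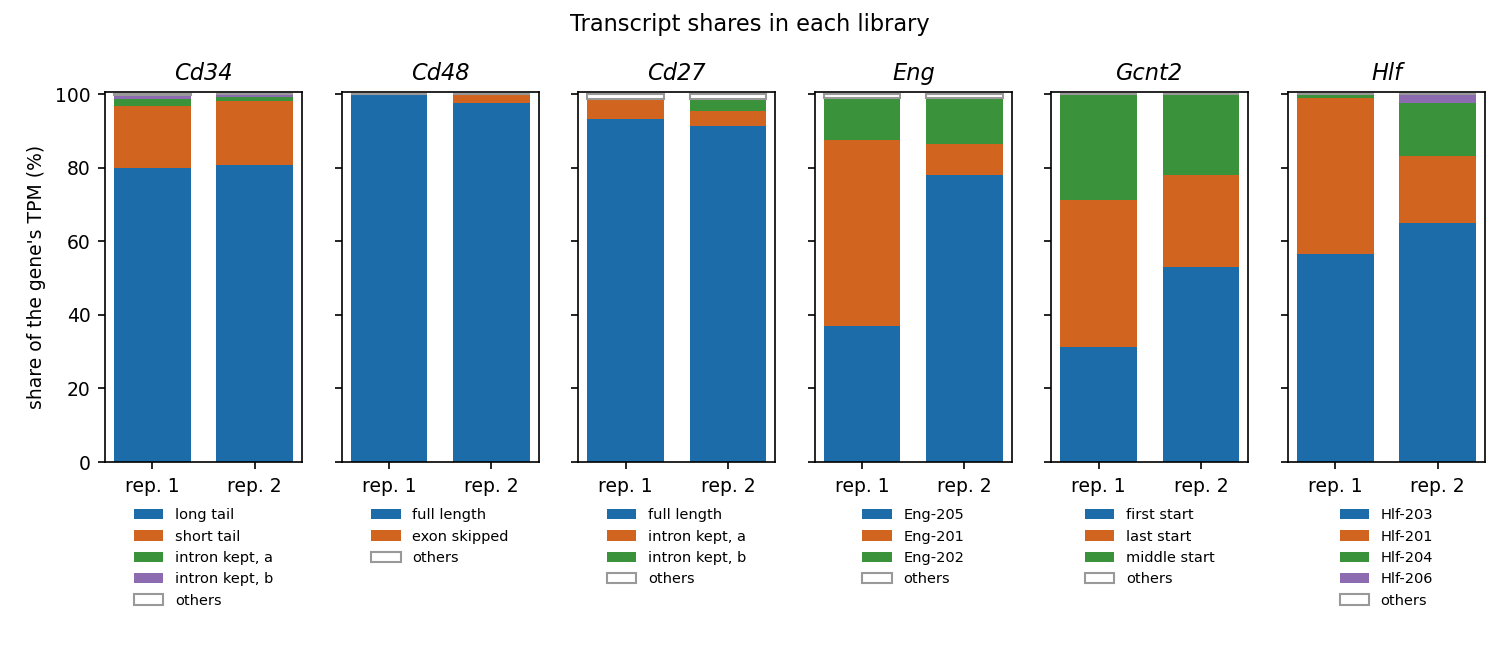
Share of each transcript in the level of its gene (%), replicate 1 left of replicate 2, for the 6 members at 1 TPM or more in both libraries. The bars of Cd34, Cd48 and Cd27 are nearly alike in both libraries, while Eng-205 takes 37.0% and 78.01%, the first start of Gcnt2 31.37% and 52.95%, and Hlf-201 42.22% and 18.11%.

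Among the enzymes that build and cap lactosamine chains, 9 of 13 other genes reached 1 TPM in both libraries. None was called, while 7 of 11 tested had an adjusted p under 0.05 at a smaller ratio (exact binomial test), near the 59% of all tested genes. B4galt1 was at 29.35 and 28.97 TPM, B3gnt5 at 16.2 and 18.04 TPM and B4galt4 at 16.53 and 17.42 TPM, all genes of transferases that act on such chains. Gcnt1, the core 2 branching enzyme of the same family, was at 7.88 and 9.09 TPM. Gcnt7 was at 0.42 and 0.48 TPM, Gcnt4 at 0.29 and 0.28 TPM, and Gcnt3 had no reads, which allows up to 0.0116 and 0.0125 TPM.

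**Figure D4:**
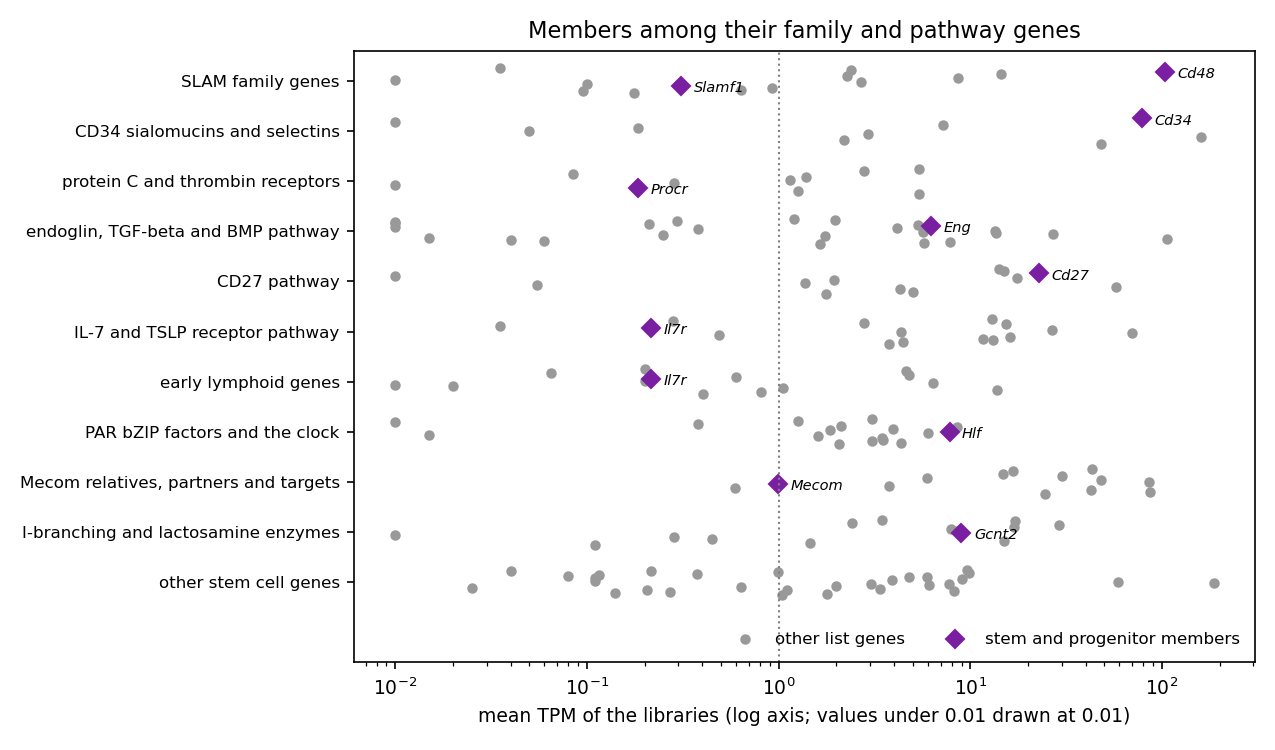
Mean TPM of the libraries on a log axis for the members (diamonds) and the other genes of each family or pathway list (circles), values under 0.01 drawn at 0.01 and the vertical position within a list without meaning. Cd48 is the highest gene of its list, and Slamf1, Procr and Il7r lie under 1 TPM below most genes of theirs.

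Across the 10 lists other than the SLAM family, 92 of 148 distinct genes other than the members reached 1 TPM in both libraries, or 62.2%, against 46.2% of all protein-coding genes. Of the members themselves, 9 passed the filter on low counts, which a gene with reads in 1 library can also pass. 2 of the 9, Mecom and Il7r, were called, both higher in replicate 1. Of all tested genes 7.66% were called, and 5.04% were called in that direction. The share called depended on level, at 25.3% of genes with a mean of 0.1 to 1 TPM, the range of both, 6.16% from 1 to 10 TPM, 0.647% from 10 to 100 TPM and 0.302% above. The read ratio was above 1 for 8 of the 9, with a median log2 of 0.43, and the median over all tested genes was -5.66e-05. Deposited intervals did not overlap for 6 of the 9 members past the filter, and that held for 43.5% of all genes past it.

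**Figure D5:**
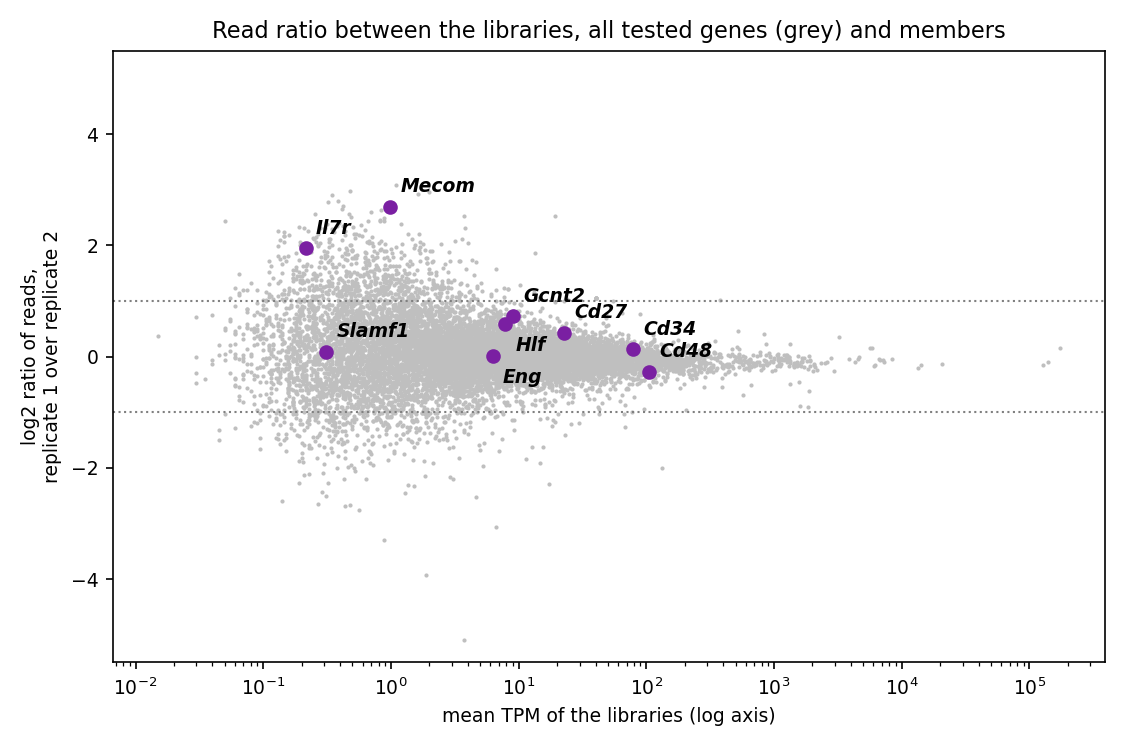
The log2 ratio of reads, replicate 1 over replicate 2, against mean TPM on a log axis for all tested genes (grey) and the 9 members tested (purple), with dotted lines at 2-fold; 1 gene with a mean of 0 TPM is not drawn. Mecom at 2.70 and Il7r at 1.95 lie above the upper line, and the other 7 lie between the lines, Cd48 alone below 0.

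Levels of cell type markers also differed between the libraries, in different directions. Of the megakaryocyte markers, whose sums are given above, 7 of 8 tested leaned to replicate 1. Erythroid markers summed to 664.8 and 353.35 TPM, with Car1 alone at 511.91 and 242.33 TPM. Of 10 tested 6 leaned to replicate 1. In all 4 were called, 2 in each direction, where 7.66% of all tested genes were called. Car1 and Gata1 were higher in replicate 1, and the globin genes Hbb-bs and Hba-a1 were lower. Monocyte markers summed to 2998 and 3438 TPM, with all 7 leaning to replicate 2. Of the granulocyte markers 3 of 10 leaned to replicate 1, and of the mast cell and basophil markers 2 of 7. The part of these cell types in the ratios of the members was not tested.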

How the data were processed

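Per the file lists deposited with the samples, reads were aligned to mm10 and quantified with GENCODE M4, each library on its own. No aligner, quantifier version, strand setting or sort gate was named there (not given in the sources used here). The expected counts deposited by the authors estimate reads per feature and divide a read that fits several of them. The authors' TPM values sum to a fixed total over all rows, so abundant RNAs lower every other gene. The deposited FPKM values are scaled by effective length and library size. The deposited percent values give each transcript's share of its gene. Score columns, also deposited, bound a credibility interval around the posterior mean, at a level not given.

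GENCODE M21 on GRCm38 gave symbols, transcripts, sequences and positions and matched 98.0% of Ensembl rows. Of 52 transcripts of the members, 48 had the same length in both annotations. Those of Gcnt2 and Il7r differed in length, and where along the transcript they differ was not examined. Cd244 was matched to Cd244a by its RefSeq synonym. Rows that name no gene held 0.00310% and 0.00295% of counts and were left out.

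Expected counts were rounded, filtered with filterByExpr and scaled with TMM (edgeR 4.0.16, R 4.3.3). Reads of each gene were compared by an exact two-sided binomial test (scipy 1.17.1) against the library ratio, with Benjamini-Hochberg adjustment over all 14304 genes and log2 ratios with a prior count of 2. The procedure was tested on simulated data. Poisson intervals are exact at 95%, the limit for a count of 0 is 3 reads (not given where the deposited interval reaches above it), and both cover counting error only, since PCR copies are not independent. The members and gene lists were chosen with earlier results of these data known. All members and SLAM family genes were named, and of other lists the 3 highest genes, those without reads, and relatives, ligands and receptor partners. A few genes of these lists are not reported here. Other called genes were named after their values were seen. Alternatives used DESeq2 1.42.0 size factors, other thresholds and units, and 1 library at a time.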

Additional observations from a re-analysis of the deposited data

How the results depend on the processing

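The median level of the members was 7.03 TPM from the mean of the libraries. It was 15.4 with TPM rescaled to named nuclear genes, 5.31 in FPKM, 7.18 from the posterior mean, and 6.37 to 7.31 leaving out 1 library. At 1 TPM or more, 6 members passed in both libraries under each minimum and unit run, and 6 to 7 with 1 library left out. The number of members called different was 2; it was 7 with no minimum ratio, 3 (with Procr) with no filter on low counts, and 1 (Mecom) with counts divided by 4, and stayed at 2 with DESeq2 size factors, total counts or a prior count of 0.5. Over all genes, 1096 calls became 8446, 3385 and 521 under the first 3 of these. The members with 1 transcript over 50% numbered 6, and 8 to 10 leaving out 1 library, since a single library then decides. These counts include Il7r, whose share is fixed by its single annotated transcript, while the other 9 members have more than 1. SLAM family genes at 1 TPM numbered 6, and 6 to 8 with 1 library left out. Partner genes numbered 92. They numbered 95 to 98 with 1 library left out, 95 from the posterior mean and 99 with a minimum of 0.5 TPM. No direction reversed. Summing Eng-201 and Eng-205, and grouping Mecom transcripts by start, were chosen after the shares were seen. No paired analysis was possible because the libraries form 1 group; leaving out a library leaves no binomial test. Reads limit what can be said of Slamf1, Il7r, Procr and Mecom in replicate 2, which had 45, 14, 1 and 38.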

Other observations

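Other genes used to mark blood stem cells and multipotent progenitors ranged from under 0.1 TPM to above every member, and 15 of 30 reached 1 TPM in both libraries. Lmo2, a blood transcription cofactor, was at 195.72 TPM in replicate 1 and 177.12 TPM in replicate 2, Kit, the stem cell factor receptor, at 64.12 and 53.45 TPM, and Erg at 11.03 and 8.73 TPM. Ly6a (Sca-1) was at 4.15 and 1.90 TPM, Thy1 at 0.13 and 0.15 TPM and Fgd5 at 0.13 and 0.10 TPM. Of 24 genes tested, 21 leaned to replicate 1, with a median log2 ratio of 0.63, and 5 were called, all higher in replicate 1, where 5.04% of all tested genes were called in that direction. Among them were Pdzk1ip1 (4.62 and 2.15 TPM), Sult1a1 (1.51 and 0.70 TPM), Mycn (1.01 and 0.26 TPM) and Robo4 (0.33 and 0.08 TPM). Mycn and Robo4 had means of 0.1 to 1 TPM, a range where 25.3% of genes were called in either direction. From 1 to 10 TPM that share was 6.16%. The list was chosen with earlier results known.

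Of 13 early lymphoid genes other than Il7r, 4 reached 1 TPM in both libraries. Satb1 was at 14.51 and 12.98 TPM, Notch1 at 7.13 and 5.61 TPM and Flt3 at 5.85 and 3.69 TPM. Of 9 tested, Dntt, which encodes terminal transferase, was the single gene called, at 7.12 and 2.09 TPM (log2 ratio 1.71, exact binomial test, adjusted p = 3.3e-68). Over all tested genes 7.66% were called, and 6.16% of those with a mean of 1 to 10 TPM. Rag2 was at 0.70 and 1.41 TPM, Rag1 at 0.03 and 0.01 TPM and Ebf1 at 0.01 and 0.12 TPM. Mast cell and basophil markers, all 7 at 1 TPM or more in both libraries, summed to 128.5 and 143.1 TPM.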
